A study of Mus musculus with 21 samples.

Results

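The 8 genes described here, Grem1, Nog, Chrd, Chrdl1, Fst, Fstl1, Bmper and Twsg1, encode secreted proteins that bind bone morphogenetic proteins (BMPs) or related ligands outside the cell. They were chosen by symbol, and all 8 were found among the 31053 genes of the single-cell matrix. BMP ligands act through paired serine/threonine kinase receptors and SMAD proteins, and in the colon their activity is high near the surface, where it favours differentiation, and low at the crypt base, where stem cells divide. Stromal cells below the crypts are known to release antagonists that keep ligands from their receptors, gremlin 1 and noggin among them. Chordin and chordin-like 1 also trap ligands, follistatin binds activins and some BMPs, and Bmper and Twsg1 proteins can either block or help BMP signalling depending on their partners.

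The series held 21 samples of C57BL/6 mice, of which 9 were used here. They were 1 single-cell RNA library from the colon of a 12-week-old female wild-type animal or animals given 2% DSS (dextran sulfate sodium, a chemical that injures the colon lining), labelled D3 and described as gp38+CD90+ stromal cells, and 8 ATAC-seq libraries from colons of 12-week-old male mice. ATAC-seq reads open chromatin; the peak lists stood for 4 sorted populations with 2 libraries each, labelled MRISC (in the series' title, Map3k2-regulated intestinal stromal cells), CD34 SP, CD138 (sorted as CD34-CD138+) and Myofibroblast, all gp38-positive and negative for CD45, Epcam and CD31. No treatment is given for the ATAC-seq mice. The 12 bulk colon RNA samples, of wild-type and Map3k2-/- mice on water or DSS, were not analysed here, so nothing below compares genotypes or DSS with water. The number of mice behind a library is not given in the sources used here.

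In the single-cell library 11376 of 11484 barcodes were kept, with a median of 6052 UMIs (unique molecular identifiers, each counting 1 captured RNA molecule) and 2288 genes per cell. Clustering without the 8 genes gave 11 clusters, of which 8 with 11026 cells were stromal. Clusters that carried enough fixed markers were given a name ending in "-like": 1 lamina propria fibroblast-like cluster led by Kcnk2, Adamdec1 and Ces1d, 1 CD34+CD81+ fibroblast-like, 1 smooth muscle and myofibroblast-like, 1 inflamed fibroblast-like led by Mmp10 and Il11, 1 mesothelium-like and 1 crypt-top fibroblast-like. The inflamed fibroblast-like cluster also carried the lamina propria markers Adamdec1, Ces1d, Ces1f and Ces1g, with Ces1f and Ces1g among its leading genes. Its name therefore does not describe all of its cells. A pair of clusters stayed unnamed and is called by its leading genes, Cxcl13 and Fgf12 or Spock3 and Hapln1. The CD34+CD81+ fibroblast-like cluster, with 1353 cells led by Ptx3, Pi16 and Ackr4, was the only 1 of these 8 stromal clusters above the library mean in both Cd34 (645 CPM) and Cd81 (783 CPM). CPM are a gene's UMIs scaled to the pooled UMI total of a group of cells (counts per 10⁶ UMIs). The sort markers were present in all 8 stromal clusters, with Pdpn, the gene of gp38, at 111 to 408 CPM and Thy1, the gene of CD90, at 40.2 to 193 CPM, against 28.6 and 13.4 CPM in epithelium-like cells. With 1 library there is no replicate error and no test of RNA levels: intervals are 95% Poisson intervals for pooled levels and exact (Clopper-Pearson) intervals for shares, and both cover counting error only.

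The sequences of 5 places are shown first because the chromatin results turn on them. All are on build mm10 (GRCm38), read 5′ to 3′ on the strand of the gene. The first 3 are the middle of open regions upstream of Grem1, at chr2:113759826-113760125, chr2:113760654-113760883 and chr2:113768775-113769074 on the minus strand. The first and the third were open in MRISC and CD34 SP only, and the second in MRISC only. The fourth is the 250 bases before the Grem1 start in RefSeq (GRCm38.p6), chr2:113758649-113758898, and the fifth is the middle of an intron region of Chrdl1, chrX:143344700-143344999, minus strand, open in all 4 populations. Capitals mark a searched word on either strand: TGANTCA of AP-1 factors, CTTTGAT of TCF/LEF factors, GGAATG of TEAD factors and GGCGCC, a GC-rich word that SMAD proteins can bind.
Grem1 upstream region in MRISC and CD34 SP: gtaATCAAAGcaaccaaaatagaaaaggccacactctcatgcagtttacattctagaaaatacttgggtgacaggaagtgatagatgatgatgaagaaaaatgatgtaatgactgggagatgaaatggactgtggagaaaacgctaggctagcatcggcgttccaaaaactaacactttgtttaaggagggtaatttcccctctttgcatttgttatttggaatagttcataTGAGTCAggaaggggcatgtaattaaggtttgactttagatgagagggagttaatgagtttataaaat
Grem1 upstream region in MRISC: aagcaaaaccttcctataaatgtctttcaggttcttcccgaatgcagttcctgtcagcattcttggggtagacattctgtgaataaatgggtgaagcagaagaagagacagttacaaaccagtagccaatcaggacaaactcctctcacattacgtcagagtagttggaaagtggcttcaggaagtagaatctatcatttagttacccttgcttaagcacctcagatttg
Grem1 far upstream region in MRISC and CD34 SP: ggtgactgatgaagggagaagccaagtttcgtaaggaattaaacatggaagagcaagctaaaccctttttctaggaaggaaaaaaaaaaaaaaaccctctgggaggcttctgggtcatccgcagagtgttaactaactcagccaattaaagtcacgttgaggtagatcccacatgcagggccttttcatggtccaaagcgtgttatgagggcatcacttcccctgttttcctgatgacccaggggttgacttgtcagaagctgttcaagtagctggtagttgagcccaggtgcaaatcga
Grem1 promoter: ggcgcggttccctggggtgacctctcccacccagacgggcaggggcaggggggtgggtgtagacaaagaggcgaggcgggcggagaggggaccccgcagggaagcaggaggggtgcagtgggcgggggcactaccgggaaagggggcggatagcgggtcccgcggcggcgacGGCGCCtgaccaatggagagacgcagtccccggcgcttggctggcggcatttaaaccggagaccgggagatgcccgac
Chrdl1 intron region: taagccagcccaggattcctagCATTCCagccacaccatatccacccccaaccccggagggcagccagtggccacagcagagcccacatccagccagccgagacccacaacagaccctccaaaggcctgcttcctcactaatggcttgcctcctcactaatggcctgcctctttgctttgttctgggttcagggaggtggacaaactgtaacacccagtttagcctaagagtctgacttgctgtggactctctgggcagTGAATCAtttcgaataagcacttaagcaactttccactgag

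Over all kept cells the members fell into an abundant group and a rare group. Fstl1, a follistatin-like secreted glycoprotein, was the most abundant at 582 CPM (576 to 587) with a UMI in 90.8% of cells. Grem1 followed at 185 CPM (182 to 188) and 30.1% of cells, and Twsg1 at 95 CPM (92.8 to 97.3) and 42.2% of cells. Grem1 thus had the higher level but was seen in fewer cells than Twsg1: a Grem1-positive cell held 3.93 UMIs on average and at most 61, a Twsg1-positive cell 1.44 and at most 7. The other 5 were rare, with Chrd at 13.1 CPM, Fst at 10.6, Bmper at 6.36, Chrdl1 at 3.73 and Nog at 3.36. Their shares of cells with a UMI ran from 1.92% for Chrdl1 to 7.79% for Chrd. Levels are compared without division by gene length because the library counted RNA from its 3′ end.

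Free RNA was measured in 546978 near-empty droplets, where the members stood at 165 CPM for Grem1, 451 for Fstl1, 93.4 for Twsg1, 14.3 for Chrd, 12.3 for Fst, 8.79 for Bmper, 4.63 for Chrdl1 and 3.70 for Nog. Free RNA was estimated at 14.9% of stromal UMIs from genes of immune and epithelial cells, and at 4.74% to 15.9% from single genes of that list. The pooled estimate puts free RNA at 24.5 CPM for Grem1 (7.80 to 26.2 over the single genes), 1.82 for Fst (0.581 to 1.95), 1.31 for Bmper, 0.688 for Chrdl1 and 0.55 for Nog. Some clusters lay below the pooled estimate for Grem1 or Fst, so it is too high there and serves as an upper guide. Of the 24 epithelium-like cells, 25.0% held a Grem1 UMI at a median of 20290 UMIs. Thinned to 3000 UMIs, 4.35% of them (1 of 23 cells) and 22.2% of all cells held one. No doublet caller was run, and doublets remain among the cells.

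**Figure D1:**
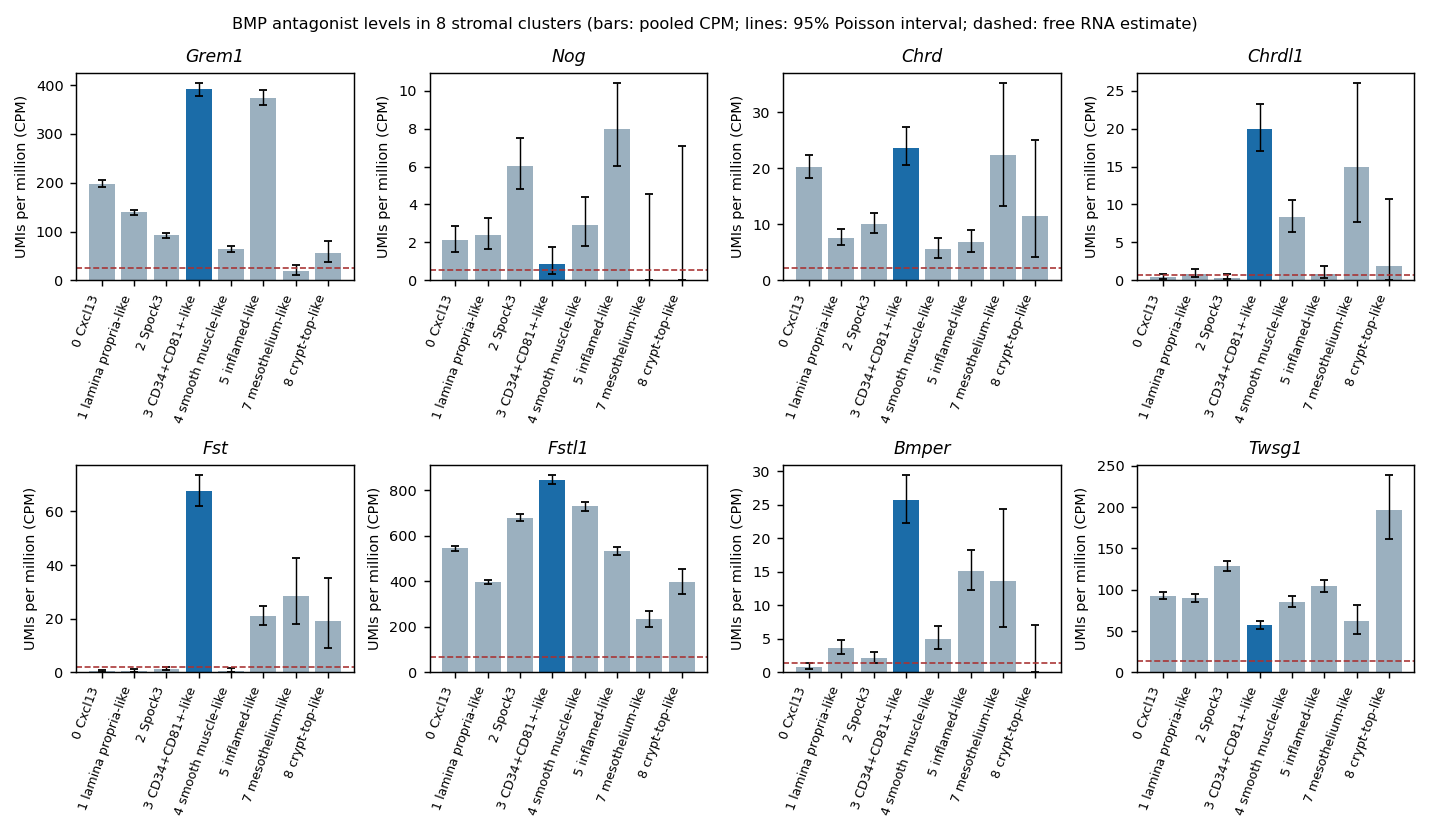
Pooled level of each gene (y axis, CPM) in the 8 stromal clusters (x axis); bars are pooled CPM, lines 95% Poisson intervals, the dashed line is the pooled free RNA estimate, an upper guide, and the CD34+CD81+ fibroblast-like cluster is dark blue. Grem1 reached 391 CPM there and 374 CPM in the inflamed fibroblast-like cluster, while Fst stood at 67.7 CPM there and under the dashed line in 4 clusters.

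Grem1, which binds BMP2 and BMP4, was highest in 2 clusters that did not differ beyond counting error. It stood at 391 CPM (377 to 404) in CD34+CD81+ fibroblast-like cells and at 374 CPM (360 to 389) in inflamed fibroblast-like cells. Next came the Cxcl13 cluster at 198 CPM (192 to 205), lamina propria fibroblast-like cells at 139 (133 to 145) and the Spock3 cluster at 92.6 (87.6 to 97.8), all apart from each other. Smooth muscle and myofibroblast-like cells, at 63.8 (58.3 to 69.8), and crypt-top fibroblast-like cells, at 55.6 (37.2 to 79.8), overlapped in their intervals. The crypt-top value rests on 29 UMIs in 8 of 78 cells, of which 1 cell held 17. Mesothelium-like cells were lowest at 18.6 CPM (10.4 to 30.6), an interval that holds the pooled free RNA estimate. The 1353 CD34+CD81+ fibroblast-like cells held 23.7% of all Grem1 UMIs and the 894 inflamed fibroblast-like cells 19.2%. Of these, 39.7% and 38.7% of cells had a Grem1 UMI, and 33.4% and 30.1% at 3000 UMIs per cell.

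Fst and Bmper, whose protein (crossveinless-2) binds BMPs at the cell surface, had their highest pooled levels in CD34+CD81+ fibroblast-like cells. Fst stood at 67.7 CPM (62.2 to 73.6) in CD34+CD81+ fibroblast-like cells, which held 71.6% of its UMIs. Mesothelium-like (28.5 CPM), inflamed fibroblast-like (20.9) and crypt-top fibroblast-like cells (19.2) followed with overlapping intervals. The 144 Fst UMIs of inflamed fibroblast-like cells lay in 42 of 894 cells, and the highest of these held 41. In the other 4 stromal clusters Fst lay between 0.332 and 1.17 CPM, within or below the free RNA range of 0.581 to 1.95 CPM. Bmper stood at 25.7 CPM (22.3 to 29.4) in CD34+CD81+ fibroblast-like cells and at 15.1 (12.3 to 18.3) in inflamed fibroblast-like cells. The mesothelium-like value of 13.6 CPM (6.80 to 24.4) overlapped both. Lamina propria fibroblast-like, smooth muscle and myofibroblast-like, Cxcl13 and Spock3 cells held 0.83 to 5 CPM of Bmper. No Bmper UMI was found in the 78 crypt-top fibroblast-like cells, an upper limit of 5.75 CPM at 3 counts.

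Chordin and its relative had separate patterns. Chrd was 23.7 CPM (20.5 to 27.3) in CD34+CD81+ fibroblast-like cells, 22.3 (13.2 to 35.2) in mesothelium-like cells and 20.2 (18.2 to 22.4) in the Cxcl13 cluster, which did not differ beyond their intervals. It was 5.53 to 11.5 CPM in the other 5. Chrdl1 was 19.9 CPM (17 to 23.2) in CD34+CD81+ fibroblast-like cells, 14.9 (7.68 to 26.0) in mesothelium-like cells and 8.29 (6.37 to 10.6) in smooth muscle and myofibroblast-like cells. The remaining clusters held between 0.364 and 1.92 CPM of Chrdl1, and their intervals all include its pooled free RNA estimate.

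Nog separated the 2 clusters with high Grem1. It was 7.97 CPM (6.01 to 10.4) in inflamed fibroblast-like cells and 6.05 (4.82 to 7.50) in the Spock3 cluster, against 0.856 (0.344 to 1.76) in CD34+CD81+ fibroblast-like cells, where only 7 UMIs were seen. That last interval includes the pooled free RNA estimate of 0.55 CPM. Twsg1, which forms complexes with chordin and BMPs, was 197 CPM (161 to 239) in crypt-top fibroblast-like cells and lowest, at 57.2 (52.2 to 62.7), in CD34+CD81+ fibroblast-like cells, with 61.9 (45.9 to 81.6) in mesothelium-like cells. Among fibroblasts and muscle Fstl1 ranged from 396 CPM in lamina propria fibroblast-like to 846 CPM (826 to 866) in CD34+CD81+ fibroblast-like cells, and was 232 CPM in mesothelium-like cells.

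Set against all other stromal cells, the CD34+CD81+ fibroblast-like cluster had 5 members at least 2-fold higher and 1 at least 2-fold lower. Among the 6142 genes with at least 20 CPM on either side, 4.49% were 2-fold higher and 5.83% lower. Nog and Chrdl1 did not reach 20 CPM, and Fst, Bmper and Chrd reached it in this cluster but not in the rest, so the count of members is not read against these shares. Fst had a log2 ratio of 4.31 (4.08 to 4.54), Chrdl1 3.54 (3.18 to 3.91), Bmper 2.68 (2.4 to 2.95), Grem1 1.28 (1.22 to 1.34) and Chrd 1.02 (0.78 to 1.25). Nog was lower, at -2.13 (-3.46 to -1.06). Fstl1 (0.61) and Twsg1 (-0.82) did not pass 2-fold. Chrd was near the threshold and fell under it, at 0.87, when cells were thinned to 3000 UMIs. The summed level of 7 mesothelium markers was 93.8 CPM in this cluster, with 1 of the 7 over 20 CPM and none at 0, against 5500 CPM in mesothelium-like and 8.14 to 15.3 CPM in the other stromal clusters; their part in the Fst and Chrdl1 values was not tested. The Nog value became -0.33 when single cells with a UMI of both Cd34 and Cd81 were set against the rest.

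The inflamed fibroblast-like cluster, set against the other stromal cells in the same way, had 4 members at least 2-fold higher, with 2.98% of all genes at 20 CPM higher, and 2 lower, with 2.14% lower. Only 4 members reached 20 CPM on either side, and of these Grem1 and Fst were higher and 0 lower. Fst reached it in this cluster but not in the rest. Of its 144 UMIs there, 41 lay in the highest cell, and the Fst call without that cell was not tested. Bmper (log2 ratio 1.43), Nog (1.45), Grem1 (1.16) and Fst (1.09) were higher, and Chrd (-1.02) and Chrdl1 (-2.26) lower. Grem1, Fst and Bmper were thus 2-fold higher in both clusters, while Nog, Chrd and Chrdl1 lay on opposite sides; most of the cells that each cluster was set against are the same. This cluster carried 351 CPM of Sdc1, the gene of CD138, against 24.6 CPM in the CD34+CD81+ fibroblast-like cluster.

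**Figure D2:**
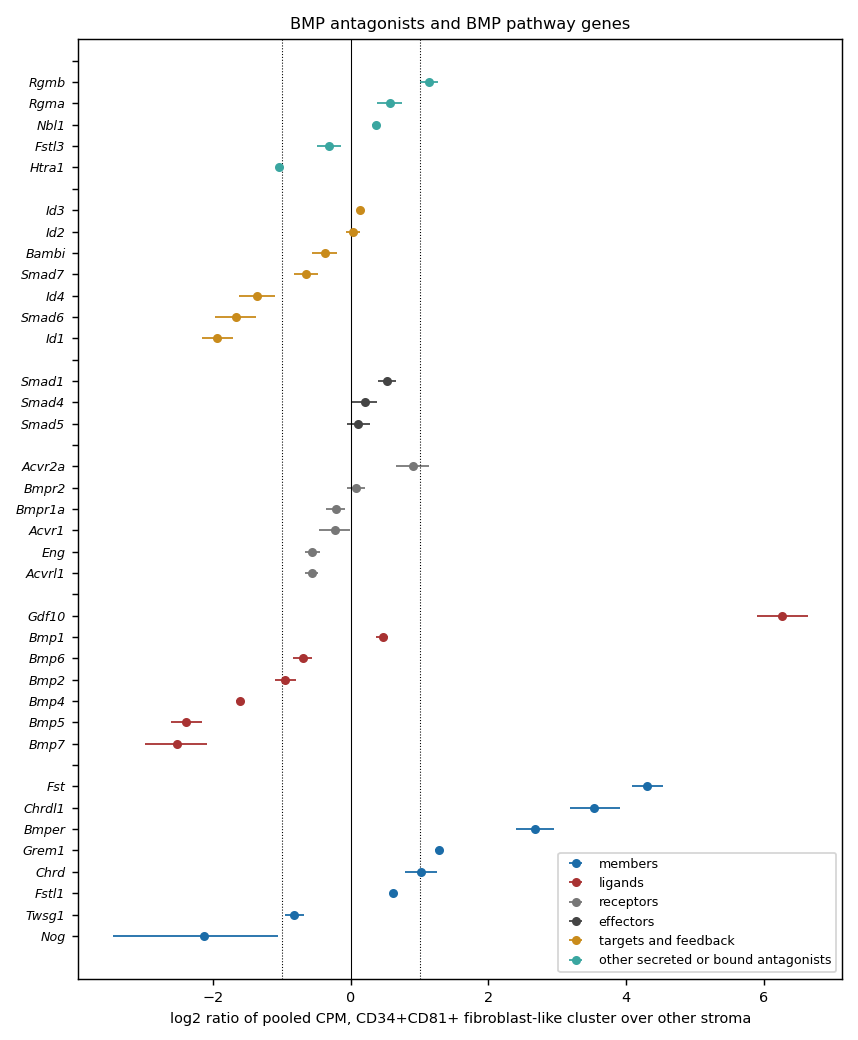
Log2 ratio of pooled CPM (x axis) between the CD34+CD81+ fibroblast-like cluster and all other stromal cells for the 8 genes (blue) and for BMP pathway genes with at least 20 CPM, by role (other colours); lines are 95% intervals for counting error and dotted lines mark 2-fold. Fst, Chrdl1, Bmper, Grem1 and Chrd lie right of the upper dotted line, and Bmp4, Bmp5 and Bmp7 left of the lower one. Not every gene in the group labelled as other antagonists is an antagonist.

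The genes the antagonists act on were given by a pathway list of 47 symbols, of which 28 reached 20 CPM. Of these 28, 2 were at least 2-fold higher and 7 lower in the CD34+CD81+ fibroblast-like cluster, with a median log2 ratio of -0.28 against -0.17 over all genes. Among 7 ligand-list genes, Bmp4 stood at 308 CPM against 944 in other stroma (log2 ratio -1.61), Bmp5 at -2.39 and Bmp7 at -2.53. Bmp2 (-0.96) and Bmp6 (-0.70) did not pass 2-fold, and Gdf10, a divergent BMP family gene and a leading gene of the cluster, was higher at 6.27. None of 6 receptors or 3 SMAD effectors passed in either direction. Of 7 target and feedback genes, 3 were lower, namely Id1 (20.4 against 78.4 CPM), Id4 and the inhibitory Smad6, while Id3, at 2230 against 2040 CPM, did not pass. Id genes answer other signals besides BMP. Among the remaining 5 genes of the list, not all of them antagonists, Rgmb (1.13) was higher and Htra1 (-1.04) lower.

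Crypt-top fibroblast-like cells had another combination of levels. Their Bmp2 was 663 CPM, Bmp5 506, Bmp7 238 and Bmp3 125, beside Id1 at 276 CPM and Id2 at 291 CPM. Of the 8 members they held Fst at 19.2 CPM and Chrd at 11.5 CPM, and the most Twsg1 of the stromal clusters. No UMI of Nog or Bmper was found in these cells, but both Poisson intervals reached 7.07 CPM. The other stromal cells held 3.43 CPM of Nog and 6.59 CPM of Bmper, so these counts cannot show a difference for either gene. Grem1 stood at 55.6 CPM in crypt-top fibroblast-like cells, with 17 of its 29 UMIs in 1 cell. Whether Grem1 stood above free RNA without that cell was not tested. Their Nbl1, another secreted BMP antagonist of the same family as gremlin, stood at 2210 CPM against 294 to 711 CPM in the other stromal clusters. In inflamed fibroblast-like cells high Grem1 stood beside high Id1 (243 CPM) and Id3 (4560 CPM).

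**Figure D3:**
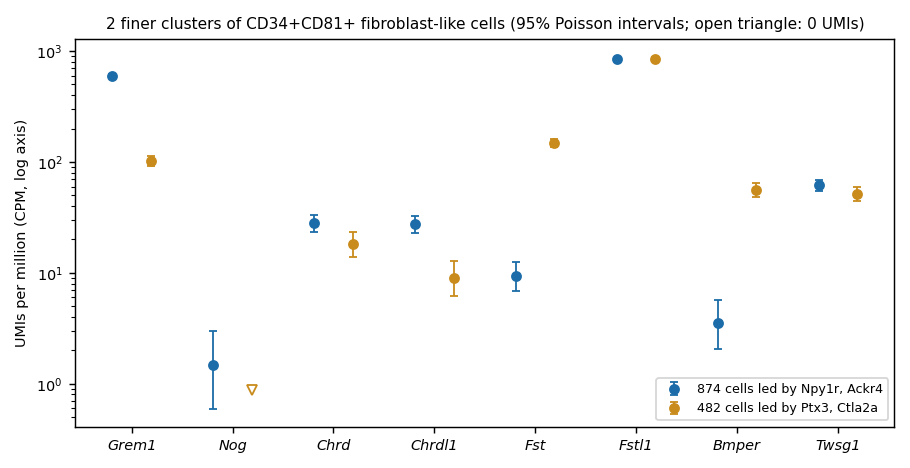
Level of each gene (y axis, CPM, log scale) in the 2 finer clusters named CD34+CD81+ fibroblast-like; points are pooled CPM, lines 95% Poisson intervals, and the open triangle marks the level of 3 counts for Nog, which had 0 UMIs. Grem1 and Chrdl1 are higher in the 874 cells led by Npy1r and Ackr4, Fst and Bmper in the 482 cells led by Ptx3 and Ctla2a.

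At a finer clustering resolution most CD34+CD81+ fibroblast-like cells fell into 2 clusters with different antagonists, of which 99.5% and 100% of cells came from that cluster. The first, 874 cells led by Npy1r, Ackr4 and Ebf1, had Grem1 at 600 CPM (578 to 622) against 102 CPM (91.2 to 113) in the second, 482 cells led by Ptx3, Inmt and Gdf10. The order was the opposite for Fst, at 9.43 CPM in the first and 149 CPM (136 to 162) in the second, and for Bmper, at 3.56 and 56.3 CPM. Both ratios were 15.8-fold, and the Grem1 ratio 5.90-fold the other way. Chrdl1 followed Grem1, at 27.7 and 9.05 CPM, and Fstl1 did not differ beyond counting error, at 840 and 852 CPM. Cd34 was 631 and 662 CPM and Cd81 687 and 915 CPM, so both clusters carried the 2 marker genes. Bmp4 was 440 CPM in the first and 128 CPM in the second. Fst was among the 10 leading genes of the second cluster, so its value there is a description.

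Counts of cells with a UMI come from the same cells. Within the 1353 CD34+CD81+ fibroblast-like cells, 59 held both Fst and Bmper, against 18.7 expected from their shares (ratio 3.15). Grem1 and Fst were found together in 58 cells against 79.8 expected (0.727), and Grem1 and Bmper in 43 against 50 (0.86). Chrdl1 and Fst shared 23 cells against 18 (1.28), and 4 against 6.27 after thinning. With each cell thinned to 3000 UMIs, Grem1 and Fst shared 21 cells against 40.7 expected, and Grem1 and Bmper 10 against 19.4, while Fst and Bmper shared 20 against 6.38. Grem1 and Chrdl1 shared 68 cells against 48.0 (ratio 1.42 before and after thinning).

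Across all kept cells, 7 of 28 pairs of members were found together at least 1.5 times as often as their shares predict, and 3 of 28 when the expected number was summed within clusters. Over all kept cells the highest ratio was that of Fst and Bmper, with 71 cells against 9.19 expected (7.72) and 24.6 within clusters (2.89). Chrdl1 and Fst shared 28 cells against 5.71 (4.90), which dropped to 1.36 within clusters. Grem1 and Chrdl1 shared 107 cells against 65.7, a ratio of 1.63 on either count. Nog and Chrdl1 shared 10 cells against 4.24, and against 2.17 within clusters (4.61), the highest ratio there but from few cells. The rare members give few cells: 90% of Nog-positive and 92.4% of Chrd-positive cells held a single UMI. Cells with a UMI of at least 4 members made up 10.1% of CD34+CD81+ fibroblast-like, 6.26% of inflamed fibroblast-like and 3.24% of all cells. At 3000 UMIs per cell those shares were 2.34%, 0.681% and 0.545%.

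Grem1 also differed among other finer clusters. A finer cluster of 862 cells led by Cnn1, Actg2 and Myh11, all from the smooth muscle and myofibroblast-like cluster, had 14.4 CPM (11.3 to 18.1), within the free RNA range. A finer cluster of 276 cells led by Rgs5, of which 92.4% came from the same cluster, had 161 CPM (146 to 177), 11.2-fold more. Fibroblast genes and depth moved with Grem1: Cd34 was 38.7 and 213 CPM, Cd81 17.7 and 77.2 CPM, and the median depth 5504 and 9323 UMIs. Their part in the Grem1 difference was not tested. In 270 cells led by Cemip and Ccl20, 83.3% of them from the inflamed fibroblast-like cluster, Grem1 was 561 CPM (530 to 592), Fst 12.3 and Bmper 6.17. In 778 cells led by Ces1f and Il1rn, 78.7% from that cluster but named lamina propria fibroblast-like by their markers, Grem1 was 242 CPM, Fst 21.0 and Bmper 16.2. A finer cluster of 1123 cells led by Cxcl13 and Ttyh1 held 318 CPM of Grem1, more than the 198 CPM of the cluster they came from. With Cd34 at 643 CPM and Cd81 at 164 CPM, it too was above the library mean in both genes. Nog was highest, at 10.4 CPM, in 623 cells led by Cd36 and Nxf7, where Grem1 was 31.8 CPM and Twsg1 171 CPM. The mesothelium-like cluster gave off 19 cells led by Kcna1 and Gpr37l1 that held 9 of its 23 Fst UMIs and 3 of its 12 Chrdl1 UMIs. Without them the mesothelium-like cells had Fst at 18.8 CPM and Chrdl1 at 12.1 CPM.

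The genes whose pooled levels were most like each member across the 9 clusters of at least 50 cells are a description, since the points share 1 library and 4259 genes were searched. For Grem1 they were Twist2 (Pearson r 0.931), Slc29a1 (0.908), Sod3 (0.890), Nfkb1 and Ccng2 (both 0.886). For Bmper they were Pim1 (0.946), Cxcl1 (0.940), Il6 (0.936), Myd88 and Sult5a1 (both 0.934), and for Fst Hnrnpa0 (0.917), Mt2 (0.916), Mt1 (0.905), Smoc2 (0.889) and Gm12840 (0.879). Twsg1 was most like Syap1 (0.963), Fstl1 like Mcl1 (0.900) and Dpysl3 (0.888), and Chrd like Rpl23 (0.937) and Ormdl2 (0.925). Nog and Chrdl1 were too rare for this measure.

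Open chromatin was then described in the window of each gene, its body with 10 kb on both sides. The peak lists gave 1 score per peak, the authors' own value, used here only as a percentile within its list. MRISC had 177054 peaks and CD34 SP 143411, while CD138 had 216805 and Myofibroblast 179351. Each is 1 list for a population, so replicate error cannot be given. Peaks specific to 1 population are common, at 46.6% of the MRISC list, 58.4% of the CD138 list, 62.9% of the Myofibroblast list and 34.6% of the CD34 SP list. In the 8 windows there were 99 MRISC, 71 CD34 SP, 77 CD138 and 76 Myofibroblast peaks. A start with a peak within 1 kb was found for 8 members in MRISC, where 67.4% of genes had one. It was found for 7 in CD34 SP, where 65.1% of genes had one, and likewise for 7 with CD138 peaks (68.3%) and 7 with Myofibroblast peaks (65.1%). The missing start was that of Chrdl1 in CD34 SP and in CD138, and that of Grem1 in Myofibroblast.

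**Figure D4:**
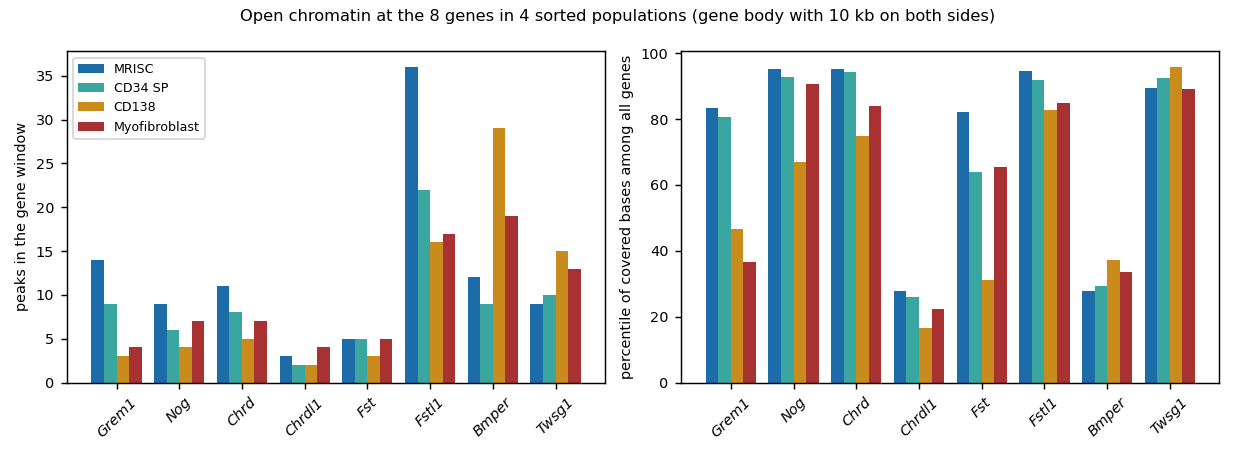
Number of peaks in each gene window (left) and the percentile, among all protein-coding genes, of the share of the window that peaks cover (right) for the 4 sorted populations (colours). For Grem1, MRISC had 14 peaks and CD34 SP 9, against 3 for CD138 and 4 for Myofibroblast, and for Bmper CD138 had 29 and Myofibroblast 19.

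Grem1 (chromosome 2, 113746164 to 113758646, minus strand) had 14 MRISC peaks and 9 CD34 SP peaks against 3 CD138 peaks and 4 Myofibroblast peaks. By peaks per 10 kb these stood at the 97.2, 90.1, 40.5 and 59.8 percentile of all protein-coding genes in their lists. By the share of the window covered they stood at the 83.3, 80.7, 46.6 and 36.5 percentile. The contrast was smaller for peaks above their list's median score, at 5, 3, 2 and 2 in the same order. Peaks whose nearest start was that of Grem1 numbered 37, 26, 25 and 23. Merged across populations the peaks of the window made 22 regions, of which 19 were open in 1 population, 2 in MRISC and CD34 SP alone and 1 in all 4. That last one, 2092 bp wide over the start, ranked at the 90.9, 86.4 and 86.7 percentile in MRISC, CD34 SP and CD138. In Myofibroblast its only peak was at the 27.6 percentile and more than 1 kb into the gene. The 2 regions shared by MRISC and CD34 SP lay 901 bp upstream, spanning 858 bp (71.6 and 80.5 percentile), and at the far edge of the window 9913 bp upstream, spanning 733 bp (81.3 and 67.6). Neither held a peak in CD138 or Myofibroblast. The window ends at position 113768646, and the far region runs from 113768559 to 113769291. Most of that region and all of its printed bases thus lie outside the window. A 230 bp region 2008 bp upstream was open in MRISC alone, at the 54.5 percentile. Of the 9 regions open in MRISC alone it was the only one with a score above its list's median.

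**Figure D5:**
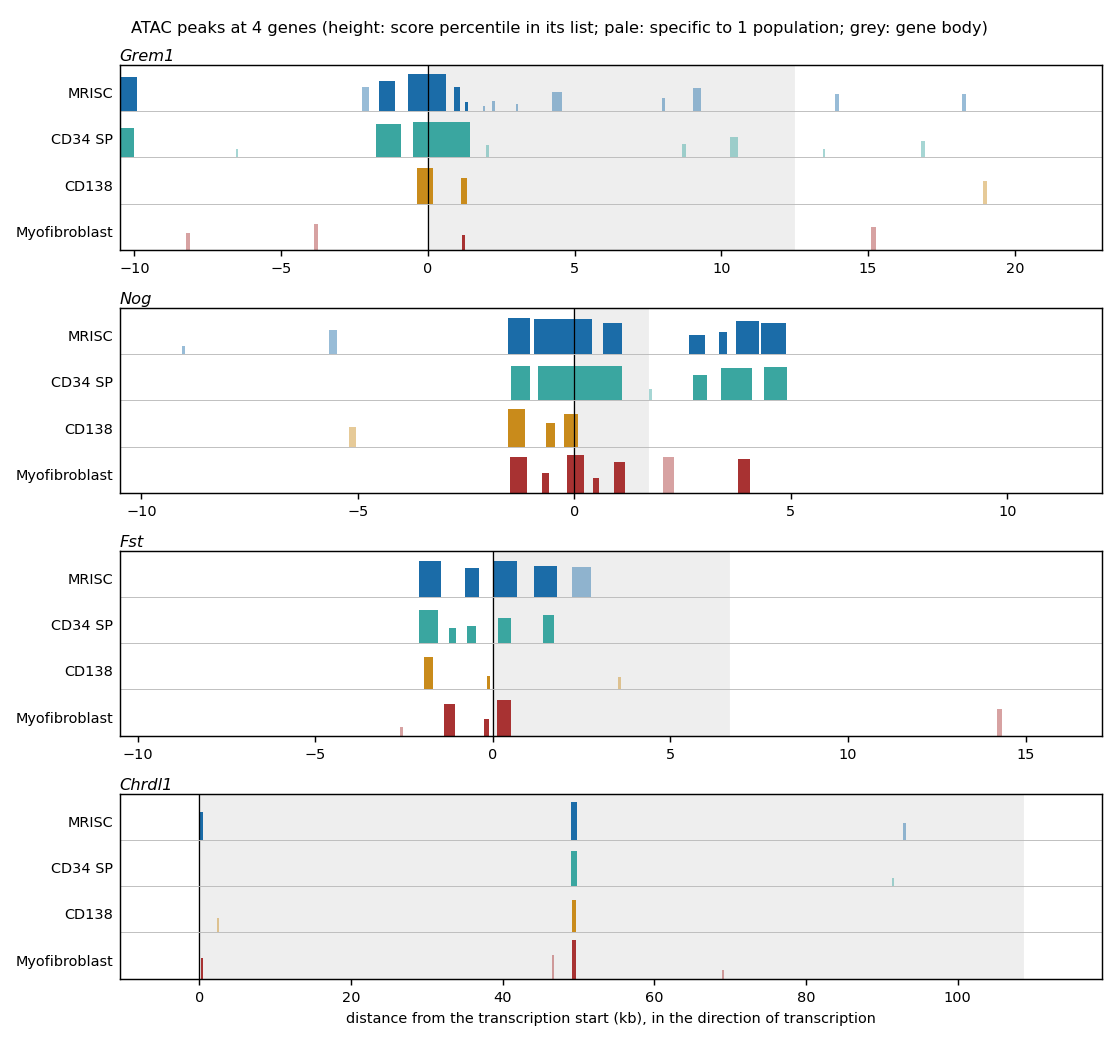
Peaks of the 4 populations (rows) by distance from the transcription start (x axis, kb, in the direction of transcription) at Grem1, Nog, Fst and Chrdl1; box height is the score percentile within its list, pale boxes belong to 1 population only and grey marks the gene body. At Grem1 the upstream boxes at 901 bp and 9913 bp appear in the MRISC and CD34 SP rows, and no Myofibroblast box covers the start.

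At Nog (chromosome 11, 89300638 to 89302332, minus strand), a gene with few UMIs in every stromal cluster, the start and a region 1026 bp upstream were open in all 4 populations, with best percentiles of 84.3, 81.2, 76.7 and 91.0 at the start. Downstream, 2 regions were open in MRISC and CD34 SP only and 1 in these and Myofibroblast. A 267 bp region 2043 bp from the start was open in Myofibroblast alone, at the 86.1 percentile.

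At Fst (chromosome 13, 114452290 to 114458951, minus strand) no region was open in all 4 populations. A region 21 bp inside the start ranked at the 86.6 percentile in MRISC, 56.1 in CD34 SP and 86.7 in Myofibroblast, and had no CD138 peak. CD138 had a peak in a region 77 bp upstream (22.5 percentile), shared with Myofibroblast (30.5) alone. Another region, 1039 bp upstream, was open in CD34 SP (26.4) and Myofibroblast (74.7) alone. A region 1464 bp upstream was open in MRISC, CD34 SP and CD138 but not in Myofibroblast. Regions 1167 bp inside and 375 bp upstream were open in MRISC and CD34 SP alone, and a 525 bp region 2229 bp inside, overlapping an exon, in MRISC alone at the 68.7 percentile. CD34 SP had 0 specific peaks in this window.

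Chrdl1 (chromosome X, 143285674 to 143394262, minus strand) had 7 regions in a window of 128589 bp. Its start was open in MRISC (63.3 percentile) and Myofibroblast (42.1) only. The intron region printed above, 48958 bp inside the gene, was open in all 4, at the 93.1 percentile for Myofibroblast, 91.8 for MRISC, 84.0 for CD34 SP and 75.4 for CD138, the highest score of this gene in each list.

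Chrd (chromosome 16, 20733127 to 20742384, plus strand) had 11 MRISC peaks, 8 CD34 SP peaks, 5 CD138 peaks and 7 Myofibroblast peaks. Its window also holds Thpo, so its peaks cannot be given to Chrd alone. Bmper (chromosome 9, 23223076 to 23485200, plus strand) had 54 regions, 47 of them open in 1 population: 23 in CD138, 14 in Myofibroblast, 7 in MRISC and 3 in CD34 SP, where the CD138 and Myofibroblast lists hold the most specific peaks overall. Its highest single-population region was a Myofibroblast one, at the 85.9 percentile. Fstl1 (chromosome 16, 37776873 to 37836514, plus strand) had 43 regions, 32 of them in introns, with 11 open in MRISC alone. Twsg1 (chromosome 17, 65921972 to 65951226, minus strand) was the most shared, with 7 of 16 regions open in all 4 populations. At least 1 specific peak lay in the windows of all 8 members in MRISC and in Myofibroblast, where 72.8% and 77.9% of gene windows had one, and of 7 members in CD34 SP (62.8%) and in CD138 (78.4%).

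Over the 8 windows, 178 regions were formed, of which 123 were open in 1 population, 21 in 2, 14 in 3 and 20 in 4. Those open in 1 population numbered 36 for MRISC and 21 for CD34 SP, with 34 for CD138 and 32 for Myofibroblast. As a share of the member peaks of each list that was 36.4%, 29.6%, 44.2% and 42.1%, below the share in the whole list each time. A further 12 were open in MRISC and CD34 SP alone, 5 of them at Fstl1, 2 each at Grem1, Nog and Fst, and 1 at Chrd.

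Short words were searched on both strands in the central 200 bp of each peak. The TEAD word lay in 16.2% of MRISC member peaks (13.0% of all MRISC peaks) and 18.3% of CD34 SP ones (13.5%). The CD138 share was 13.0% (11.9%) and that of Myofibroblast 18.4% (12.0%). In the same order of lists the AP-1 word lay in 9.1%, 14.1%, 13.0% and 11.8% against 12.6%, 15.2%, 9.91% and 9.43%. In the printed sequences, the Grem1 region 901 bp upstream held 1 AP-1 word and 1 TCF/LEF word, found in the central 300 bp of 16.3% and 3.99% of all MRISC peaks. The other 2 upstream regions held none of the 11 words searched. The Chrdl1 intron region held an AP-1 and a TEAD word. GGCGCC lay in the 250 bases before the start of Grem1 and of Chrd, 2 of the 5 members in the RefSeq promoter table, and in 9.59% of 32851 promoters. Nog, Chrdl1 and Fst are the members without an entry. A word is a match of letters and not a measured binding site.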

How the data were processed

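The members and the gene lists were chosen with earlier results of these data known. UMI counts are whole numbers for each gene and barcode as deposited; the authors used, per the submitters' processing notes, bcl2fastq, Cell Ranger and Seurat with build mm10. The file header names software version 3.0.0. Each peak has 1 deposited score, from bcl2fastq and bedtools on mm10, per the submitters' processing notes. Which peak caller was used, what the score measures and whether the libraries of 1 population were pooled is not given in the sources used here.

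Kept barcodes had 500 genes or more and no more than 10% of UMIs from mitochondrial genes. After scaling to 10000 UMIs and a log transform, 2000 variable genes other than the 8 members entered 30 principal components, 15 neighbours and Leiden groups (leidenalg 0.10.2) at a resolution of 0.5, or 1 for the finer clusters. A name required 3 or more fixed markers at 20 CPM and 2-fold over the rest. A cluster of 290 cells with both immune and stromal genes, 36 cycling and lymphoid cells and 24 epithelium-like cells were not counted as stroma. A member was called when its pooled CPM differed 2-fold, with a floor of 3 counts; cells are not replicates and gave no p-value. Thinning to 3000 UMIs left out 736 shallower cells. Empty droplets were raw barcodes of 1 to 100 UMIs. No doublet caller was run.

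Gene models were those of GENCODE vM21 (GRCm38, the same assembly as mm10; 21938 protein-coding genes), and positions count from 1. Peaks of different populations that shared 1 bp formed 1 region. The fold calls, the interval search (against bedtools 2.31.1) and the thinning were tested on simulated data. Pathway genes were named from 100 CPM in a stromal cluster or past 2-fold, and the 5 most alike genes by Pearson's r of log2(CPM + 1) among genes with 50 CPM; some of these are not reported here. Named peaks were the highest-scored ones and regions of 1 population above the median score; other regions and the finer clusters were chosen after their values were seen. The closing section gives the alternatives.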

Additional observations from a re-analysis of the deposited data

How the results depend on the processing

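Of 78 recomputed values, 42 kept their side or stayed within the limits set, 36 moved and 0 reversed. The 5 members called higher became 4 at the lowest, and the 1 called lower became 2 with free RNA subtracted (Twsg1 at -1.01) and 0 with cells split by a UMI of Cd34 and of Cd81, an alternative chosen after seeing the data, as were the fibroblast-only and within-cluster settings. Thinned to 3000 UMIs, the shares of cells were 22.2% for Grem1, 0.996% for Nog, 3.75% for Chrd, 0.959% for Chrdl1, 1.62% for Fst, 77.3% for Fstl1, 1.45% for Bmper and 24.1% for Twsg1; fewer UMIs per cell lower a share by construction. Under a stricter filter (1000 genes, 5% mitochondrial UMIs) the Fstl1 share was 91.6%. Pairs at or above 1.5 times their expected number came to 11 when 2 UMIs were required and 3 within clusters.

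Peaks in the windows of MRISC, CD34 SP, CD138 and Myofibroblast numbered 165, 126, 126 and 128 with 50 kb on both sides, 179, 131, 172 and 162 by the nearest start, and 63, 42, 48 and 46 above the median score. Regions open in MRISC alone numbered 56 when an overlap of 50% of both peaks was required, 12 above the median score, 22 with lists of equal number and 64 with 50 kb. In CD34 SP alone they numbered 3 above the median, 22 with lists of equal number and 40 with 50 kb, in CD138 alone 12 above the median, 18 with lists of equal number and 58 with 50 kb, and in Myofibroblast alone 11, 25 and 57. With lists of equal number the order of the populations thus changed, with Myofibroblast first. Most regions of 1 population thus have scores below their list's median. No paired analysis was possible because the peak lists carry no replicates and the single-cell group is 1 library, and for the same reason no library could be left out. Rare members limit the depth: Nog rests on 245 UMIs and Chrdl1 on 272 in the whole library.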
